A study of Mus musculus with 7 samples.

Results

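The genes described here are the drug and organic anion transporters of the hepatocyte, chosen as a list of 9 gene symbols and read from the count table wherever a symbol had a row. The list holds the uptake carriers *Slco1a1*, *Slco1a4*, *Slco1b2*, *Slco2b1* and *Slc22a7*, the canalicular efflux pumps *Abcc2* and *Abcg2*, and the basolateral efflux pumps *Abcc3* and *Abcc4*. Of the 9 listed genes, 7 had a row among the 14819 of the table, and all 7 passed the filter on low counts that left 14779 genes for testing. *Slco1a4* and *Slc22a7* were not analysed here. Primary hepatocytes were isolated by collagenase perfusion from WT mice (n = 4) and from mice with a whole-body knockout of *Wdr6* (WDR6-WKO, n = 3), in which CRISPR–Cas9 had removed exon 2, so the deletion was carried by every cell type and not by hepatocytes alone. The mice were male, the study's methods name C57BL/6J as its strain, and no age is given for this experiment. Cells of both genotypes were kept overnight in William's E medium with 10% serum and received no treatment, so the levels are those of hepatocytes after a night in culture. The comparison asks how loss of WDR6, a WD40-repeat protein studied for its part in hepatic lipogenesis, went with the mRNA levels of these transporters.

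Hepatocytes clear drugs, bilirubin and bile acids from the blood in steps that are split between the faces of the cell. Carriers of the SLCO (organic anion transporting polypeptide) and SLC22 families take organic anions up across the basolateral membrane, and after conjugation the products leave through ATP-driven pumps. *Abcc2* and *Abcg2* encode pumps of the canalicular membrane, which drains into bile, whereas *Abcc3* and *Abcc4* encode pumps of the basolateral membrane, which return conjugates to the blood and are known to be induced in cholestasis. The genes are known targets of nuclear receptors, of the antioxidant factor NRF2 and of the liver factor HNF4A, and the uptake carriers are known to fall when hepatocytes are cultured.

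RefSeq promoter windows, 250 bases upstream of a transcription start in GRCm38.p6, were found for 7 of the 9 listed genes, with no entry matched for *Slc22a7* and *Abcc3*. The windows were searched on both strands for the core of the antioxidant response element bound by NRF2 (TGACNNNGC) and for the HNF4 core CAAAGTCCA, which 10.2% and 0.384% of all 32851 promoter windows held. Some of the matched genes had windows at several starts, so these shares per window are not shares per gene. The window of *Abcc4*, a pump that was lower in WDR6-WKO cells, is shown because it held a searched motif at the annotated start of the gene, with the match in capitals. It lies at chr14:118706220-118706469 on the minus strand, with the antioxidant response element core on the opposite strand at positions -25 to -17.
Abcc4: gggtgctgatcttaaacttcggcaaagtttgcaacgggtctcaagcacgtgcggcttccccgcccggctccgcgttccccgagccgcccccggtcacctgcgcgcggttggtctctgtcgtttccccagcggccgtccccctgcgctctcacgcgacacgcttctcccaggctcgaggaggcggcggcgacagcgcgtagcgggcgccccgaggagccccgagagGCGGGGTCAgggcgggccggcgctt
The *Abcc2* window held the antioxidant response element core at positions -98 to -90 from a RefSeq start that is not the annotated gene start, and the HNF4 core was found in no window of the 7 matched genes. None of the matches overlapped another. These are letter matches, and binding at them was not measured.

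The libraries held 17816913 to 23668940 counted reads. Levels are given as TMM-scaled CPM, counts relative to a library total adjusted by the trimmed mean of M values, and differences as log2 fold changes of WDR6-WKO against WT ± s.e. from edgeR's quasi-likelihood test, with p-values adjusted by Benjamini-Hochberg over all genes tested. A gene is said to rise or fall when the adjusted p was below 0.05. Levels are means ± s.d. with n = 4 for WT and n = 3 for WDR6-WKO throughout, and values of single libraries are listed in replicate order. The mean level of *Wdr6* itself was 44.0 ± 4.03 CPM for WT and 2.38 ± 0.179 CPM for WDR6-WKO, a log2 fold change of -4.20 ± 0.11 (edgeR adjusted p = 3.44e-12), which fits the labels of all 7 libraries. Within a genotype no pair of libraries had counts that agreed within sampling noise, and the chi-square per gene was 3.84 to 8.34 among the pairs without WDR6-WKO replicate 3 and 14.4 and 16.2 in the pairs that hold it. That library stands apart from its group, and results for the members are given with and without it. Across all genes the median log2 fold change was 0.01, and 983 genes rose and 914 fell (1212 and 696 with library sizes alone as the scaling, where the median was 0.03).

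The basolateral pumps *Abcc3* and *Abcc4* both fell, the canalicular pumps *Abcc2* and *Abcg2* were not called, and of the uptake carriers, which were near the lower end of the table, only *Slco1b2* fell. In all, 3 of 7 members were called, all 3 of them lower, beside 12.8% of all genes tested called in either direction and 6.18% called lower. Estimates were below 0 for 6 of the 7 members, and the median log2 fold change was -0.19. CPM ranges of the genotypes did not overlap for 2 members, *Abcc3* and *Abcc4*, beside 23.5% of all genes tested. With 7 members these shares are a description of the list. Called against not called is no test of a difference between the basolateral and canalicular pumps. Without WDR6-WKO replicate 3 *Abcc2* was called lower as well (edgeR adjusted p = 0.00249). That fit called 4233 of 14796 genes, 2083 of them lower, so calls were more frequent across all genes.

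**Figure D1:**
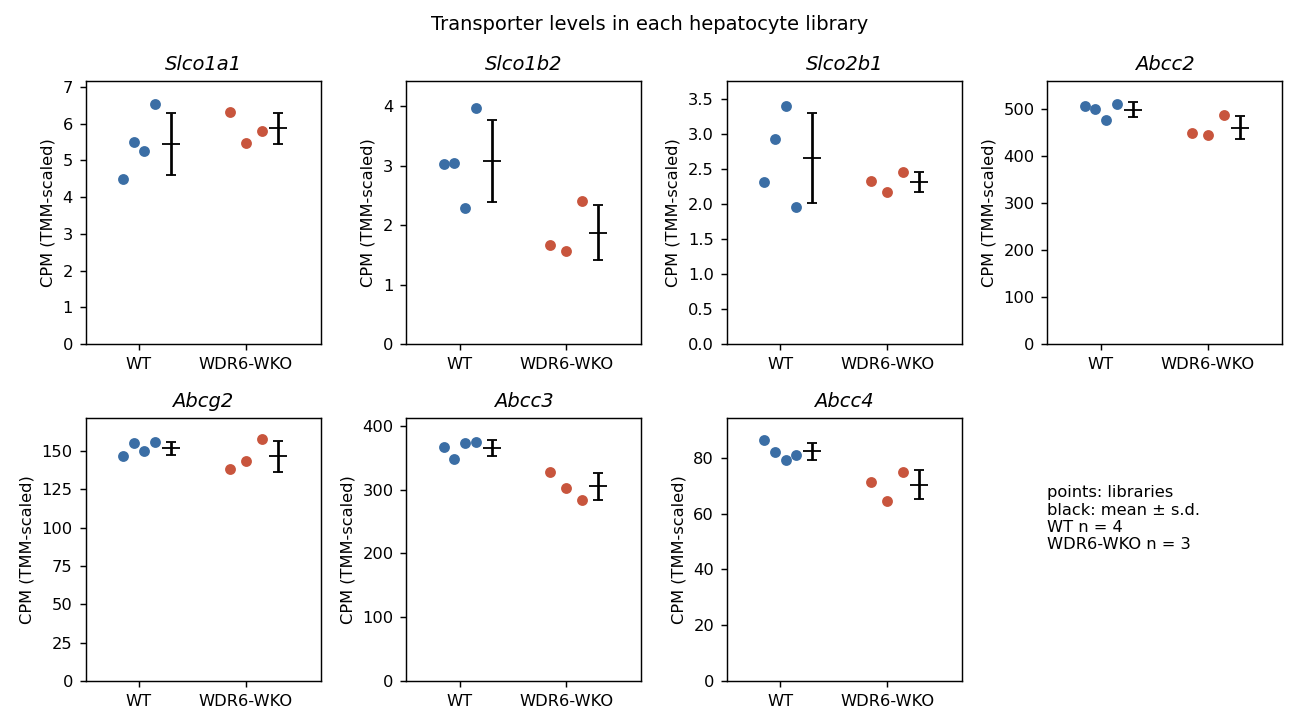
TMM-scaled CPM (vertical axes, starting at 0) of the 7 measured transporters in each library, with WT (n = 4) and WDR6-WKO (n = 3) side by side and the mean ± s.d. in black. The points of the genotypes are separate for *Abcc3* and *Abcc4* and overlap for the other 5 genes.

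*Abcc3* (ENSMUSG00000020865.16, chr11:94343295-94392997, minus strand), whose product exports glucuronides to the blood, showed the firmest difference. Its level was 366, 348, 373 and 375 CPM in the 4 WT libraries and 328, 303 and 284 CPM in the 3 WDR6-WKO libraries. Every WDR6-WKO library was below every WT library. The means were 365 ± 12.3 CPM and 305 ± 21.8 CPM, so that *Abcc3* in WDR6-WKO stood at 83.5% of WT. The log2 fold change was -0.26 ± 0.05 (95% confidence interval -0.37 to -0.15, edgeR adjusted p = 0.00432), and the exact two-sided permutation test gave p = 0.0286, the smallest value that 35 regroupings of the libraries allow. Without WDR6-WKO replicate 3, which had the lowest value, the log2 fold change was -0.21 (adjusted p = 0.000254). The call held in each of the 15 other settings tried, with adjusted p of 0.000254 to 0.0229, although the size is below the absolute log2 fold change of 0.35 that the study asked of a DEG.

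*Abcc4* (ENSMUSG00000032849.14, chr14:118482692-118706219, minus strand) exports cyclic nucleotides and, together with glutathione, bile acids. In the 4 WT libraries it was at 86.4, 82.3, 79.4 and 81.2 CPM and in the 3 WDR6-WKO libraries at 71.5, 64.7 and 74.9 CPM. Again the ranges were separate, with the highest WDR6-WKO library (replicate 3) below the lowest WT library (replicate 3). The means of 82.3 ± 2.94 CPM and 70.4 ± 5.17 CPM differed by a log2 fold change of -0.23 ± 0.06 (95% confidence interval -0.36 to -0.10, edgeR adjusted p = 0.0225), and p = 0.0286 by exact two-sided permutation. This call was less firm than that of *Abcc3*. The adjusted p rose above 0.05 when WT replicate 1, 2 or 4 was left out (0.0718, 0.0604 and 0.0552) or WDR6-WKO replicate 1 or 2 (0.0548 and 0.112), and was 0.000347 without WDR6-WKO replicate 3, where the log2 fold change was -0.27. The direction was lower in every setting.

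The canalicular pump *Abcc2* (ENSMUSG00000025194.5, chr19:43782192-43840740, plus strand), which carries glutathione and bilirubin conjugates into bile, had the highest counts of the members. It was measured at 506, 502, 477 and 513 CPM in the 4 WT libraries and at 450, 446 and 489 CPM in the 3 WDR6-WKO libraries. WDR6-WKO replicates 1 and 2 lay below all WT libraries, and replicate 3 lay within their range. Means were 499 ± 15.8 CPM and 461 ± 23.9 CPM, with a log2 fold change of -0.11 ± 0.05 (95% confidence interval -0.22 to -0.01, edgeR adjusted p = 0.136; exact two-sided permutation p = 0.0857). Leaving out WDR6-WKO replicate 3 gave -0.16 (adjusted p = 0.00249), past the threshold, and in no other setting was *Abcc2* called. The fit without that library called 4233 of 14796 genes, against 1897 of 14779 with all 7 libraries.

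*Abcg2* (ENSMUSG00000029802.13, chr6:58584523-58695676, plus strand), which exports urate, porphyrins and sulfated drugs, was at 147, 155, 150.3 and 156 CPM in the 4 WT libraries and at 138, 144 and 158 CPM in the 3 WDR6-WKO libraries. WDR6-WKO replicate 3 was the highest of the 7 libraries and the other two of its group the lowest. The log2 fold change was -0.05 ± 0.05 and was not called (edgeR adjusted p = 0.584), and its 95% confidence interval of -0.17 to 0.06 places the WDR6-WKO level between 89.1% and 105% of WT. Without WDR6-WKO replicate 3 it was -0.11 (adjusted p = 0.0653).

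Among the uptake carriers, *Slco1b2* (ENSMUSG00000030236.10, chr6:141629518-141686646, plus strand), which takes up bilirubin, bile acids and statins, fell, at a low level. The counts were 60, 58, 43 and 79 reads in the 4 WT libraries and 40, 33 and 43 reads in the 3 WDR6-WKO libraries. On the CPM scale these were 3.03, 3.04, 2.29 and 3.97 in WT and 1.66, 1.56 and 2.40 in WDR6-WKO, so WDR6-WKO replicate 3 lay above WT replicate 3 and the ranges overlapped. The mean fell from 3.08 ± 0.688 CPM to 1.87 ± 0.459 CPM, with a log2 fold change of -0.73 ± 0.23 (95% confidence interval -1.22 to -0.25, edgeR adjusted p = 0.0456; exact two-sided permutation p = 0.0857). It is the largest estimate among the members and the least certain of the 3 calls. The adjusted p was 0.0801, 0.0893 and 0.145 without WT replicate 1, 2 or 4, 0.161 and 0.183 without WDR6-WKO replicate 1 or 2, 0.0574 with limma-voom and 0.0526 with library sizes alone, and 0.00401 without WDR6-WKO replicate 3, where the log2 fold change was -0.93.

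*Slco1a1* (ENSMUSG00000041698.11, chr6:141907282-141946962, minus strand), a carrier of steroid sulfates and bile acids known for its higher level in male liver, was the one member with an estimate above 0. Its values were 4.49, 5.50, 5.26 and 6.53 CPM in the 4 WT libraries and 6.32, 5.48 and 5.81 CPM in the 3 WDR6-WKO libraries. All WDR6-WKO libraries lay within the WT range. The log2 fold change was 0.11 ± 0.14 (edgeR adjusted p = 0.672), and the 95% confidence interval of -0.20 to 0.42 spans 87.2% to 134% of WT. Without WDR6-WKO replicate 3 the log2 fold change was 0.12 (adjusted p = 0.642). Of its 50-base sequences 2.26% are also found in other transcripts, *Slco1a4* and its other neighbours of the same family among them, so a small part of its reads could have been counted on either gene.

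*Slco2b1* (ENSMUSG00000030737.17, chr7:99657804-99711340, minus strand), a carrier of sulfated steroids found in many tissues, was at 2.32, 2.93, 3.40 and 1.96 CPM in the 4 WT libraries and at 2.33, 2.17 and 2.46 CPM in the 3 WDR6-WKO libraries. The WDR6-WKO libraries fell inside the WT spread. The log2 fold change was -0.19 ± 0.21 (95% confidence interval -0.64 to 0.26, edgeR adjusted p = 0.600), and it was -0.23 without WDR6-WKO replicate 3 (adjusted p = 0.503). Exons of *Slco2b1* overlap those of *Gm15635* and *Gm34280* on the opposite strand over 549 bases, and since the strand setting of the counting is not given, reads from these genes cannot be told apart there. Its counts were 39 to 64 reads a library, and a fall of the size seen in *Abcc3* and *Abcc4* lies inside its interval.

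Per length of transcript, the listed efflux pumps stood far above the measured uptake carriers of the list. Transporters outside the list did not all follow this order. In WT, CPM per kilobase was 69.6 for *Slco2a1* and 0.475 for *Slc10a1*, both uptake carriers, and 16.6 for *Abcb1b* and 4.88 for *Abcb1a*, both efflux pumps. In CPM per kilobase of merged exons, the WT means were 64.1 for *Abcc3*, 58.5 for *Abcc2*, 18.6 for *Abcg2* and 12.9 for *Abcc4*, compared with 1.03 for *Slco1a1*, 0.625 for *Slco1b2* and 0.445 for *Slco2b1*. *Abcc3* was at the 95.3th percentile of the 14687 genes with a length, and *Slco2b1* at the 11.4th. Neighbours in this order had separate ranges over the WT libraries except *Slco1b2* (0.464 to 0.805) and *Slco2b1* (0.329 to 0.571). In WDR6-WKO the first pair overlapped, with a mean level per kilobase of 53.5 for *Abcc3* (range 49.9 to 57.5) and 54.1 for *Abcc2* (range 52.3 to 57.3), and their order depended on the length used, since the longest transcript gave 61.0 and 57.5. The same held at the low end, with 0.380 for *Slco1b2* and 0.389 for *Slco2b1* by merged exons and 0.567 and 0.529 by the longest transcript.

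**Figure D2:**
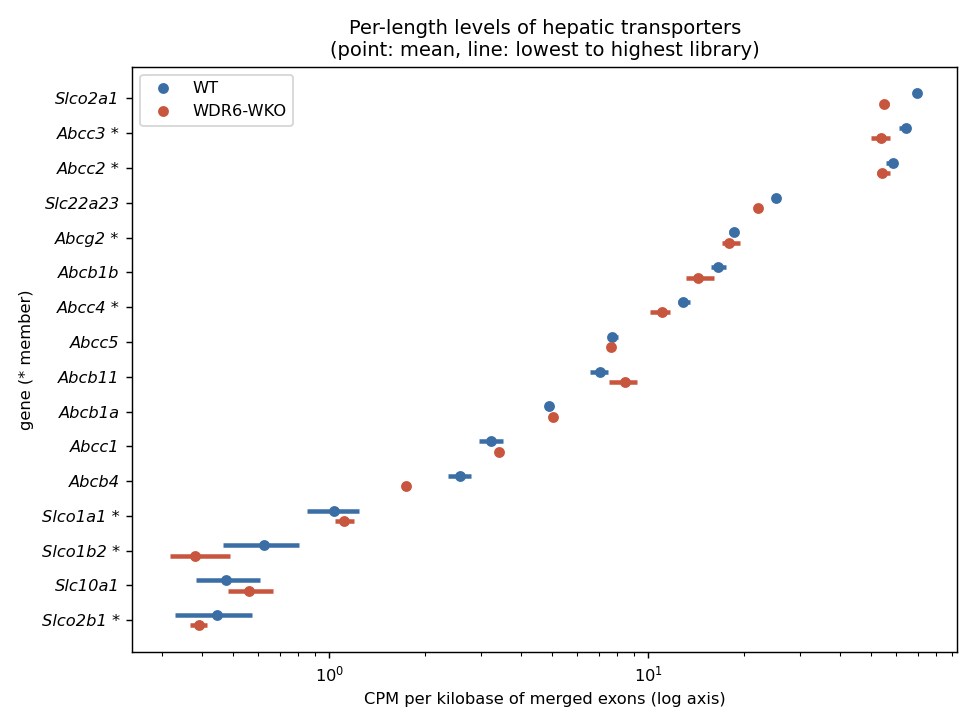
CPM per kilobase of merged exons (log axis) of the 7 members, marked with an asterisk, and of other transporters, with the mean as a point and the lowest to highest library as a line, for WT (n = 4) and WDR6-WKO (n = 3). The 4 efflux members lie above 10 and the 3 uptake members between 0.380 and 1.11, in means of either genotype.

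Summed over members on the per-kilobase scale, the level of the efflux pumps was 66.5 to 83.7 times that of the 3 measured uptake carriers in WT libraries and 69.1 to 77.4 times in WDR6-WKO libraries, and these ranges overlapped. The sum of *Abcc3* and *Abcc4* relative to that of *Abcc2* and *Abcg2*, the balance of basolateral and canalicular pumps, was 1.01, 0.949, 1.05 and 0.991 in the 4 WT libraries and 0.986, 0.907 and 0.804 in the 3 WDR6-WKO libraries. WDR6-WKO replicate 1 lay inside the WT range and the others below it. Ratios of CPM between the 6 pairs of pumps were compared after the members' values had been seen. *Abcg2* relative to *Abcc4* was 1.697 to 1.92 in WT and 1.94 to 2.22 in WDR6-WKO, a log2 ratio higher by 0.18 (exact two-sided permutation p = 0.0286, 0.171 after adjustment over the 6 pairs). The ratio of *Abcc3* to *Abcc4* differed by -0.03 on the log2 scale (exact two-sided permutation p = 0.771). None of the 6 pairs passed the adjustment. A single pair at the smallest exact p of 0.0286 cannot go below 0.171 after adjustment over 6, so the design could not have called 1 pair alone, and whether the pumps differ in how far they were lower is not settled by these ratios.

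Over the 7 libraries the genes whose log2 CPM followed that of *Abcc3* most closely, among 13440 genes with a mean of at least 1 CPM, were *Plekhg2* (Pearson r = 0.995), *Sema4g* (r = 0.994) and *Gprc5c* (r = 0.992). All 3 fell, with log2 fold changes of -0.27 (edgeR adjusted p = 0.0110), -0.52 (0.000731) and -0.38 (0.00212). For *Abcc4* the correlation with *Abcc3* was 0.716, and for *Slco1a1* it was -0.20. These correlations include the difference between the genotypes and are a description over 7 libraries.

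Other transporters, of the members' families and of further families, were read from 2 lists. These held 26 uptake carriers, of which 15 were tested, and 18 efflux pumps and exporters, of which 14 were tested. Of the uptake carriers 1 rose and 4 fell, and the median log2 fold change was -0.04. Among the lower genes were *Slco2a1*, the prostaglandin carrier, *Slc22a18* and *Slc22a23*. *Slco2a1* was the most abundant transporter examined per length, at 69.6 CPM per kilobase in WT and 55.1 in WDR6-WKO, and fell with a log2 fold change of -0.34 ± 0.04 (edgeR adjusted p = 0.000115). *Slc22a18* fell from 30.9 ± 0.850 CPM to 23.9 ± 1.38 CPM, with a log2 fold change of -0.36 (edgeR adjusted p = 0.00325). *Slc22a23* had a log2 fold change of -0.19 (edgeR adjusted p = 0.0117). The gene that rose, *Slco1c1*, a thyroid hormone carrier of the brain endothelium, did so from 0.375 CPM to 1.32 CPM (log2 fold change 1.78 ± 0.37, edgeR adjusted p = 0.00503).

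Among the other efflux pumps and exporters 1 rose and 5 fell, and the median log2 fold change was -0.11. *Abcb4*, the canalicular phospholipid floppase, fell from 24.1 ± 1.66 CPM to 16.4 ± 0.290 CPM, a log2 fold change of -0.56 ± 0.08 (edgeR adjusted p = 0.000309). *Atp8b1*, the canalicular aminophospholipid flippase, had a log2 fold change of -0.40 (edgeR adjusted p = 0.00141), *Abcc9*, a subunit of potassium channels and not a drug pump, -0.39 (0.00387), and *Abcc6*, an exporter at the basolateral membrane, -0.52 (0.0112, and 0.0535 without WDR6-WKO replicate 1). *Abcb1b*, a multidrug pump with a close paralog in *Abcb1a*, between which reads could be split, had a log2 fold change of -0.21 (edgeR adjusted p = 0.0481), but overlapping ranges, and the call held in only 1 of 7 fits that left out a library, the one without WDR6-WKO replicate 3. *Abcb11*, the bile salt export pump, went the other way, from 36.4 ± 2.03 CPM to 43.5 ± 4.34 CPM, with a log2 fold change of 0.25 ± 0.08 (edgeR adjusted p = 0.0368), a call that held in 2 of the 7 fits that left out a library, those without WDR6-WKO replicate 2 or 3. Adjusted p in these 7 fits reached 0.129 for *Abcb11* and 0.214 for *Abcb1b*. The cholesterol exporters *Abcg5* and *Abcg8* were not called.

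Of the listed genes for proteins that hold transporters at the cell membrane or carry them there, 8 were tested, 2 fell and none rose. *Rdx* encodes radixin, the linker between actin and *Abcc2* protein in the canaliculus, and fell from 418 ± 11.8 CPM to 341 ± 26.9 CPM, with a log2 fold change of -0.29 ± 0.05 (edgeR adjusted p = 0.00202). *Pdzk1*, a scaffold that binds organic anion carriers, was near the floor at 0.865 CPM in WT and 0.3504 CPM in WDR6-WKO (log2 fold change -1.29 ± 0.37, edgeR adjusted p = 0.0333, and up to 0.126 without WT replicate 1, 2 or 3 or WDR6-WKO replicate 1 or 2).

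**Figure D3:**
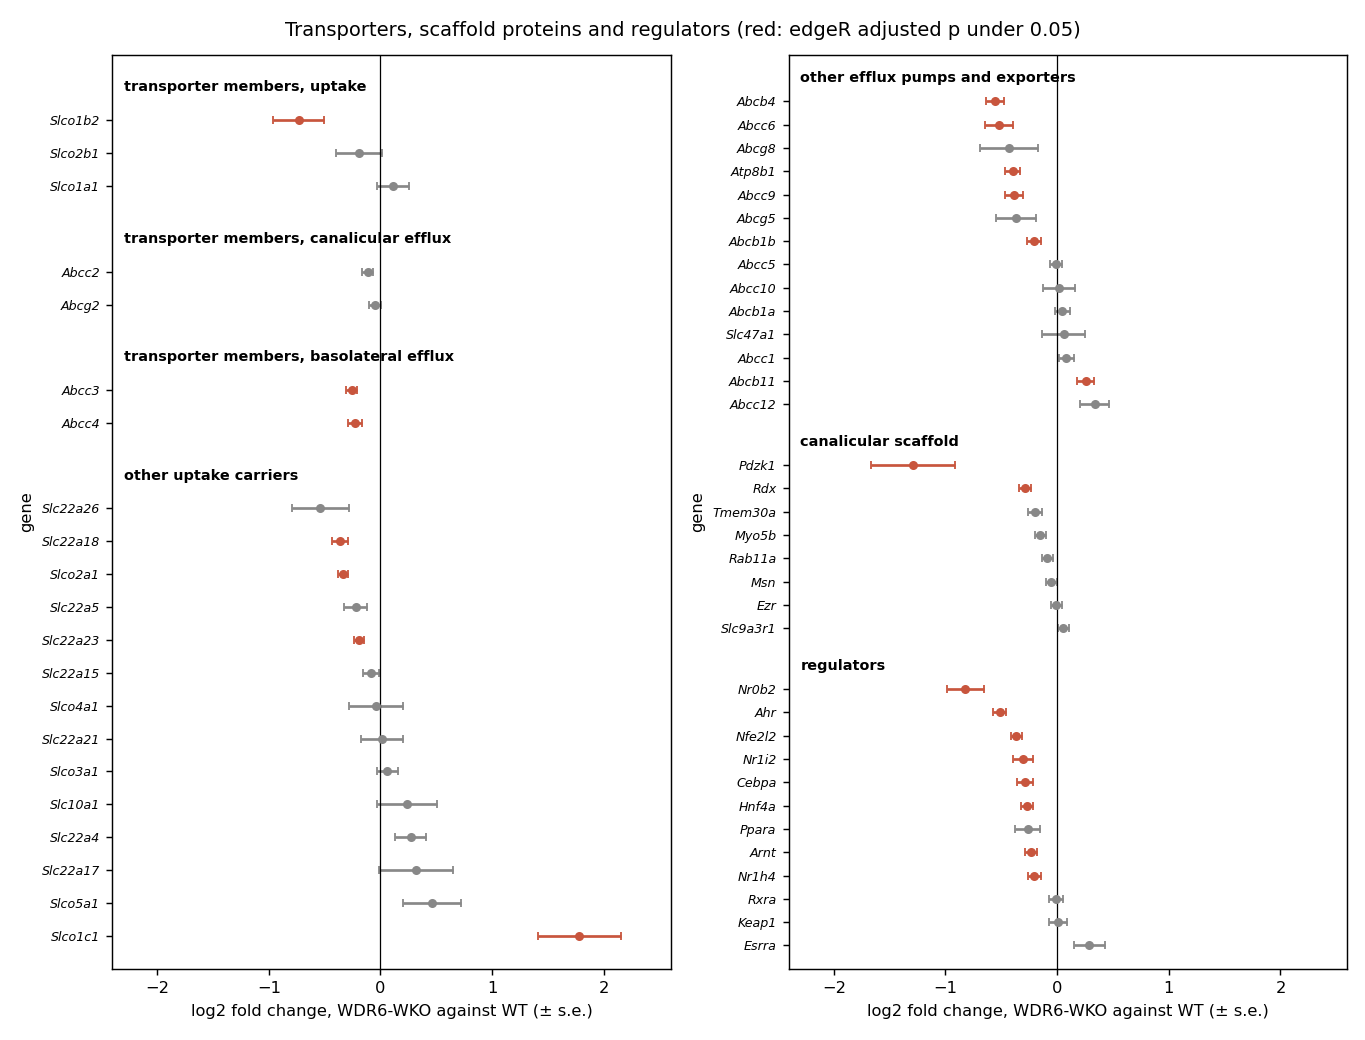
Log2 fold change of WDR6-WKO against WT ± s.e. (horizontal axes) for tested transporters, scaffold proteins and regulators, grouped by role, with genes of an edgeR adjusted p under 0.05 in red. Red points lie left of 0 except *Slco1c1* at 1.78 and *Abcb11* at 0.25.

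Regulators of these transporters were lower more often than higher: of 13 tested, 8 fell and none rose, and the median log2 fold change was -0.26. The fall was firmest for *Ahr*, the aryl hydrocarbon receptor, from 228 ± 5.81 CPM to 160.1 ± 15.1 CPM, a log2 fold change of -0.51 ± 0.06 (edgeR adjusted p = 3.34e-05). *Nfe2l2*, which encodes NRF2, fell from 434 ± 9.36 CPM to 337 ± 21.4 CPM, a log2 fold change of -0.37 ± 0.05 (edgeR adjusted p = 0.000148). *Nr0b2*, the bile acid-induced repressor SHP, had a log2 fold change of -0.82 ± 0.17 at a low level of 3.87 CPM in WT (edgeR adjusted p = 0.00403), and *Hnf4a* one of -0.27 ± 0.06 (edgeR adjusted p = 0.00502). These 4 calls held with any library left out. *Nr1i2*, which encodes the xenobiotic receptor PXR, went from 18.6 ± 0.875 CPM to 14.9 ± 1.38 CPM with a log2 fold change of -0.31 (edgeR adjusted p = 0.0329), and held in 2 of 7 fits with a library left out, those without WDR6-WKO replicate 1 or 3, while in the others the adjusted p reached 0.107. *Nr1i3* was not analysed here.

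Known targets of NRF2, of PXR and CAR, of AhR and of PPARα moved in both directions, and no list of HNF4A or SHP targets was read. Of 14 NRF2 targets 3 rose and 2 fell, and the median log2 fold change was 0.10. *Slc7a11*, the cystine carrier, rose with a log2 fold change of 0.56 (edgeR adjusted p = 1.47e-05), as did *Osgin1* (0.40, 0.00202) and *Srxn1* (0.20, 0.0105, and 0.0548 without WDR6-WKO replicate 1), whereas *Gstm1*, a glutathione transferase, and *Gclc*, the catalytic subunit of glutathione synthesis, fell (-0.40, 0.000127, and -0.28, 0.00147). Of 10 tested targets of PXR and CAR 1 rose and 2 fell (median -0.11), and these were *Gadd45b* (0.48, 0.0236), *Gstm3* (-0.66, 0.0161) and *Alas1* (-0.18, 0.0291). Their adjusted p reached 0.122 for *Gadd45b* without WT replicate 2, 3 or 4 or WDR6-WKO replicate 1 or 2, 0.0833 for *Gstm3* without WT replicate 2 or WDR6-WKO replicate 2, and 0.108 for *Alas1* without any 1 of the WT replicates or WDR6-WKO replicate 2. Of 5 tested AhR targets *Tiparp* rose (0.34, 0.0163) and *Cyp1a2* fell (-0.45, 0.0227), and their adjusted p reached 0.0621 without WT replicate 4 and, for *Cyp1a2*, 0.124 without WT replicate 1, 2 or 4 or WDR6-WKO replicate 2. Of 10 tested PPARα targets 1 rose and 2 fell (median -0.08).

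As to the cells measured, some hepatocyte markers were abundant, with *Alb* at 7366 CPM and *Apob* at 5845 CPM in WT, which fits the label. Others were much lower in WT, among them *Ass1* (96.4 CPM) and *Cps1* (39.4 CPM). *Cyp2e1* (18.0 CPM) and *Tat* (1.502 CPM) were low, as were the measured uptake carriers among the members. Of 11 tested hepatocyte markers 5 fell and none rose, with a median log2 fold change of -0.34, and their summed level was 17319 to 20501 CPM in WT and 15098 to 17094 CPM in WDR6-WKO. Of 15 Kupffer cell markers 5 rose and none fell (*Lyz2*, log2 fold change 0.64, edgeR adjusted p = 2.13e-06, *Ctss* 0.47, 0.000157, and *C1qc* 0.48, 0.00203), and their sums were 973 to 1087 CPM in WT and 1145 to 1355 CPM in WDR6-WKO. The other 10 were not called, among them *Clec4f* (0.10, 0.311), *Cd163* (0.09, 0.584) and *Timd4*, the only marker of this list with an estimate below 0 (-0.48, 0.0880). Cholangiocyte markers summed to 3159 to 3458 CPM and 3798 to 4391 CPM, most of it *Spp1* (log2 fold change 0.31, edgeR adjusted p = 0.00372), with 2 of 10 higher and 1 lower. Genes known to rise in cultured hepatocytes summed to 28023 to 28376 CPM and 23873 to 26074 CPM, with 1 of 18 higher and 3 lower (*Fn1* -0.45, *Krt18* -0.26 and *Krt8* -0.28). Endothelial marker sums were 349 to 400 CPM and 327 to 390 CPM, with 1 of 12 lower, and stellate marker sums were 850 to 883 CPM and 839 to 903 CPM, with 2 of 12 higher and 2 lower. No tested marker was at 0 in a whole genotype. The part of these shifts in the falls of *Abcc3*, *Abcc4* and *Slco1b2* was not tested, and in bulk samples fewer cells of a type and less RNA per cell cannot be told apart.

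**Figure D4:**
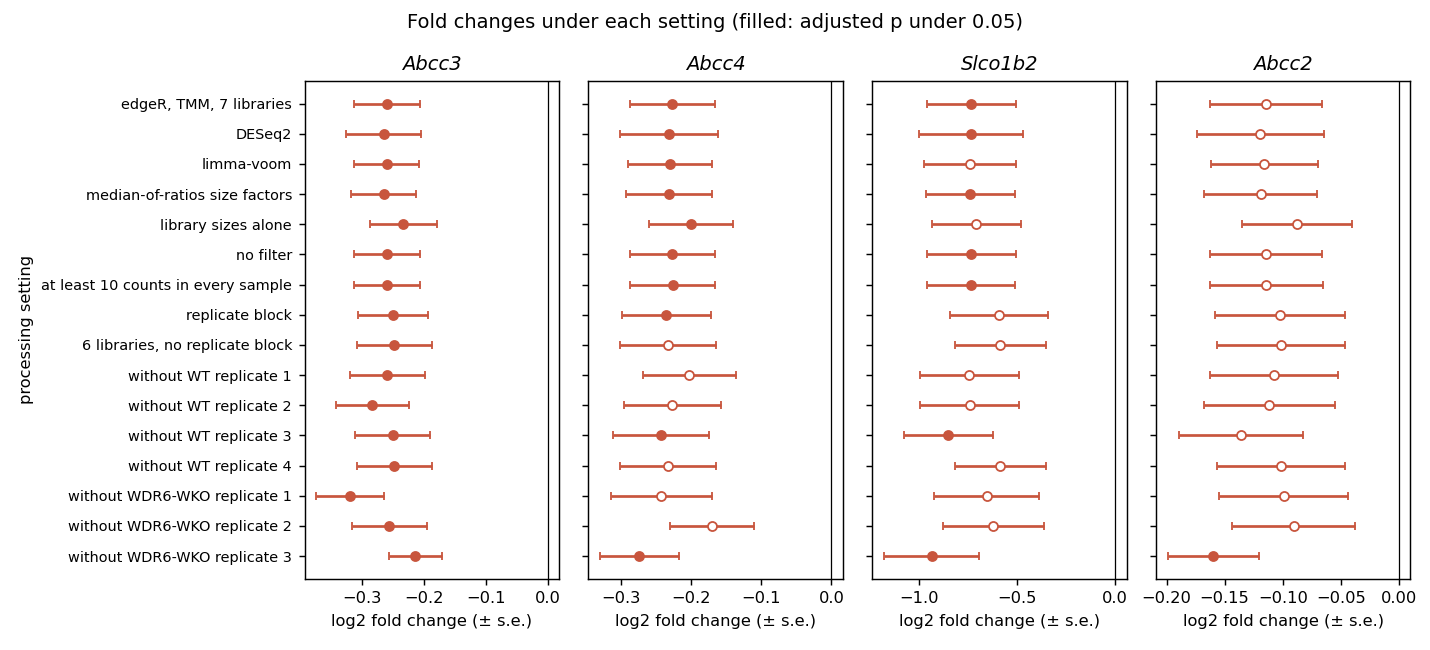
Log2 fold change ± s.e. of *Abcc3*, *Abcc4*, *Slco1b2* and *Abcc2* (horizontal axes, scaled separately) under the edgeR fit of all 7 libraries, named first, and the 15 other settings, filled where the adjusted p was under 0.05. *Abcc3* is filled throughout, and *Abcc4* and *Slco1b2* are open in several fits with fewer libraries. *Slco1b2* is also open with limma-voom and with library sizes alone, both fits of all 7 libraries. *Abcc2* is filled only without WDR6-WKO replicate 3. The 6 libraries with no replicate block and the fit without WT replicate 4 are the same fit.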

How the data were processed

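Hepatocyte RNA of 4 WT and 3 WDR6-WKO mice was sequenced as 1 library per sample on an Illumina HiSeq. Per the submitters' processing notes reads were aligned to mm10 (GRCm38) with Bowtie2 2.2.3. The authors deposited a table of raw counts by gene symbol, with no normalization (14819 rows, 14817 different identifiers). The counting tool, annotation and strand setting are not given in the sources used here. Libraries totalled 17816913 to 23668940 counts, and no row total was under 50. The study's statement that replicates were biological covers all its experiments.

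Counts were tested with edgeR 4.0.16 in R 4.3.3 (TMM scaling, filterByExpr, robust quasi-likelihood test for genotype, no replicate block), with p-values adjusted by Benjamini-Hochberg over 14779 genes. Standard errors came from the fold change and the F statistic. The biological coefficient of variation was 7.40%. The steps were tested on simulated data, where most but not all changed genes were recovered and some unchanged genes were called. In that simulated set the share of unchanged genes among the calls was above the threshold of 0.05. Exact two-sided permutation tests compared mean log2 CPM over 35 regroupings. Alternatives were DESeq2 1.42.0, limma-voom (limma 3.58.1), scaling by median-of-ratios factors or by library size alone, dropping the filter or requiring 10 counts in each library, a replicate block, each replicate left out in turn, the study's thresholds for DEGs (absolute log2 fold change of at least 0.35, unadjusted P below 0.05) and length by the longest transcript. The fit of the same 6 libraries without the block and the ratios of efflux pumps were added after the data had been seen.

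The members and lists were chosen with earlier results of these data known. Named genes are the 9 members, *Wdr6*, up to 3 genes of each list with the smallest p among those called, direct partners or regulators of a member, and the 3 genes most correlated with the called member of smallest p. Genes named beyond this rule, such as other called genes of the transporter lists and the low hepatocyte markers, were chosen after their values were seen. Some genes and a motif that meet these rules are not reported here. Coordinates, merged exons and overlaps came from GENCODE for GRCm38, and promoter windows from RefSeq for GRCm38.p6.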

Additional observations from a re-analysis of the deposited data

How the results depend on the processing

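No log2 fold change of a member changed direction. Leaving out 1 library moved the counts most: 1032 to 4233 genes called, 570 to 2150 higher and 462 to 2083 lower, with the lowest values without WDR6-WKO replicate 2 and the highest without WDR6-WKO replicate 3, and 1 to 4 members called and 2 to 5 members with separate ranges. The 5 without WDR6-WKO replicate 3 were *Abcc3*, *Abcc4*, *Slco1b2*, *Abcc2* and *Abcg2*. With fewer libraries ranges separate more easily, and the share over all genes was not computed for that setting. This count is therefore not read as a result about the members. With the study's thresholds for DEGs 583 genes were lower and 1 member was called, *Slco1b2*, since *Abcc3* and *Abcc4* lay below 0.35 in size. A replicate block over the 6 libraries numbered 1 to 3 gave 1749 genes called (943 higher, 806 lower) and 2 members, *Abcc3* and *Abcc4*. The same 6 libraries without the block, which leave out WT replicate 4, gave 1182 genes (648 higher, 534 lower) and 1 member, *Abcc3*. Deviations of libraries with the same number correlated at 0.092, 0.0417 and 0.0746, WT replicate 1 correlated more with WDR6-WKO replicate 2 (0.180), and the numbers were not read as pairs. Per-kilobase levels by the longest transcript were higher, at 73.0 for *Abcc3*, 26.6 for *Abcg2* and 0.931 for *Slco1b2* in WT, with the same order of members as by merged exons, whereas in WDR6-WKO the order turned for *Abcc3* and *Abcc2* (61.0 and 57.5) and for *Slco1b2* and *Slco2b1* (0.567 and 0.529). The uptake carriers had the fewest counts of the members, 33 to 152 a library. The cause of these shifts was not tested.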

Other observations

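Lists outside the transporters are given as values. Of 16 tested male-biased liver genes, a class to which *Slco1a1* belongs, 6 fell and 1 rose, and the median log2 fold change over the list was -0.24. The urinary protein genes *Mup12* and *Mup7* fell (log2 fold changes of -1.002 and -0.75, edgeR adjusted p = 9.03e-09 and 5.60e-07), as did *Selenbp2* (-1.39, 4.65e-06), while *Mup20* rose (0.42, 0.000155). Members of this gene family share sequence, so counts may be split between them. Of 3 tested female-biased genes 1 fell, *Cyp2c69*, at 1.32 CPM in WT and 0.131 CPM in WDR6-WKO (log2 fold change -3.16, edgeR adjusted p = 0.000884).

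Genes of the pericentral zone of the lobule fell in 8 of 13 tested, with a median log2 fold change of -0.34, among them *Cyp2a5* (-1.19) and *Glul*, glutamine synthetase (-0.58), whereas *Slc1a4*, an amino acid carrier, rose (0.80). Periportal genes rose in 5 of 12 tested and fell in 1, with a median of 0.33, among them *Arg1*, the urea cycle arginase (0.77), *Cdh1* (0.34) and *Ctsc* (0.36). Acute phase genes split, with 6 of 18 higher and 3 lower and a median of 0.02. Only 3 were called higher with the replicate block over 6 libraries, and 3 in those 6 libraries without the block. *Lcn2* (0.45) and *Orm2* (0.64) rose and the fibrinogen chain *Fgb* fell (-0.45).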
